A study of Canis lupus familiaris with 18 samples.

Results

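Across the 3 light doses of this experiment, 35 of the 32220 gene IDs in the count tables stood at a lower level in MDCKI cells carrying bPAC than in parental MDCKI cells. MDCKI is an epithelial cell line from dog kidney, and bPAC is an adenylyl cyclase of bacterial origin, switched on by blue light to produce cyclic AMP. The 35 genes were chosen by measured levels. In each dose alike, log2((bPAC + 1)/(parental + 1)) of the group mean CPM (reads per 1000000 gene reads) was at or below -1. Within bPAC cells, the same ratio of each light dose to dark lay between -0.8 and 0.8, and at least 1 group mean reached 5 CPM. A run of 37 IDs with consecutive numbers was left out. Since these comparisons chose the genes, the differences between the lines and the light responses within bPAC cells are given below as a description, without a test. Of the 7062 IDs that reached 5 CPM, 61 met the line criterion. The bound on light responses set aside 26 of those, 24 of them for a decrease in light in CPM. The share of all 7062 IDs with such a decrease was not computed, so nothing is read from that count. The mirrored rule found 62 genes higher in bPAC cells at every dose.

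The groups were bPAC cells kept dark (3 libraries), given a low dose of light (4 libraries) or given a high dose of light (3 libraries), and parental cells kept dark (3 libraries), given the low dose (3 libraries) or given the high dose (2 libraries). Both lines were plated in medium with 0.5% serum and no phenol red, and the 2 h of light began 16 h later. The labels do not say how bPAC was introduced, what drives it, or whether the bPAC line is 1 clone. The doses are named low and high without a light intensity.

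Cyclic AMP activates protein kinase A by releasing its catalytic subunits from its regulatory subunits, and one of the kinase's targets is the transcription factor CREB. In kidney epithelium this pathway carries the vasopressin signal that governs water reabsorption in the collecting duct. Among the targets of CREB are many genes that answer a rise in cyclic AMP within hours.

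The libraries held 2638511 to 9610144 reads assigned to genes. Reads were taken near the 3′ end of transcripts, so CPM are not divided by transcript length. The files name genes by Ensembl dog ID alone, and 0 of the 32220 IDs could be paired with a name in the reference table used here. No gene name, function or genome position is therefore given, the epithelial identity of the cells could not be checked against marker genes, and bPAC itself is not among the dog IDs. In bulk RNA, fewer cells that express a gene and less of its RNA per cell cannot be told apart. Nothing in the labels says that libraries of a group came from separate cultures.

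The 35 genes made up a small part of the RNA in both lines. Together they summed to 1210 ± 290 CPM in bPAC dark (SD, n = 3), 988 ± 209 CPM in bPAC low light (SD, n = 4) and 1004 ± 328 CPM in bPAC high light (SD, n = 3). In parental cells they summed to 3093 ± 346 CPM in the dark (SD, n = 3), 2738 ± 255 CPM in low light (SD, n = 3) and 2964 ± 473 CPM in high light (SD, n = 2). The library sums lay between 753 and 1545 CPM over the 10 bPAC libraries and between 2504 and 3374 CPM over the 8 parental libraries, so the lines did not overlap in the sum.

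Their levels covered a wide range. The largest group mean was below 10 CPM for 3 genes, between 10 and 100 CPM for 22 and above 100 CPM for 10. Its median was 41.96 CPM, against 41.8 CPM over the 7062 IDs that reached 5 CPM. The largest group mean lay in parental dark for 16 genes, in parental low light for 9 and in parental high light for 10.

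Each of the 35 genes was detected in bPAC cells. The fewest reads in the 10 bPAC libraries together were 62, and 0 of the 35 genes had a bPAC library without a read. The median log2 ratio of bPAC to parental cells was -1.32 in the dark, -1.22 in low light and -1.57 in high light, or 2.50-fold, 2.32-fold and 2.98-fold lower. Ratios at or below -2 were seen for 3 genes in the dark, 2 in low light and 3 in high light.

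In plain CPM the median of all genes was itself shifted at high light. Over the 7062 IDs the median ratio of bPAC to parental cells was -0.05 in the dark, -0.12 in low light and -0.28 in high light. Relative to that shift the median of the 35 genes was -1.27 in the dark, -1.09 in low light and -1.29 in high light. With libraries scaled by TMM, which removes such a shift, the medians of the 35 genes were -1.26, -1.12 and -1.37 in the same order. In plain CPM 19 of the 35 genes had their lowest ratio at high light and 9 in the dark, whereas with TMM these counts were 10 and 16. Hence the dose at which the largest number of genes had their lowest ratio depends on the scaling. The medians kept 1 order under both, lowest at high light, then dark, then low light. All 35 genes stayed below 0 at each dose under both. Under TMM the limit of -1 was met by 25 of the 35 genes at the low dose and by 30 at the high dose. The full rule was met by 23 of them and by 4 other genes.

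**Figure D1:**
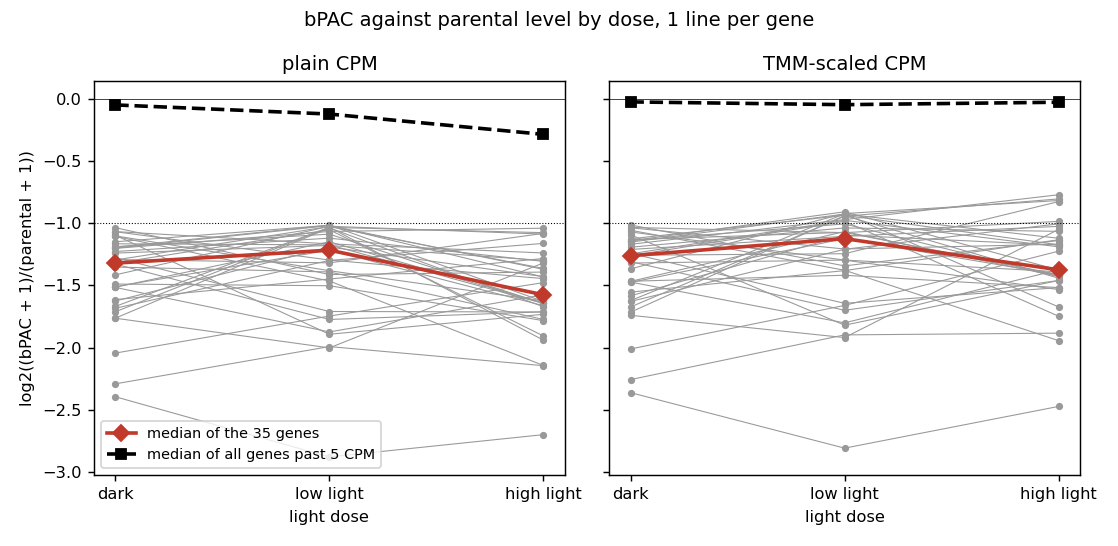
Ratio of bPAC to parental level at each light dose in plain CPM (left) and in TMM-scaled CPM (right), on a log2 scale with 1 CPM added. Each grey line is 1 of the 35 genes, the diamonds are their median, the squares are the median of 7062 genes, and the dotted line marks -1. In plain CPM the all-gene median falls to -0.28 at high light, and with TMM it stays near 0.

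For most of the genes the difference between the lines was of like size at the 3 doses. The rule favours this, since it holds each ratio at or below -1 and bounds the light response of bPAC cells. The share over all genes was not computed, so the counts here describe the chosen genes only. The range of a gene's 3 ratios had a median of 0.44 on the log2 scale in plain CPM and was under 0.5 for 23 of the 35 genes. The narrowest range was 0.12 and the widest was 1.04. Within bPAC cells the rule bounds the response. In plain CPM the median log2 change there against dark was -0.06 in low light and -0.23 in high light. With TMM, which raises levels in lit bPAC libraries relative to dark ones, the median change was not negative at either dose.

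Read library by library, the genes separated the lines to differing degrees. For 22 of the 35 genes every bPAC library was below every parental library, whatever the dose, and 1.52% of the 8530 tested genes had that pattern. Within a dose, all bPAC libraries were below all parental libraries for 28 genes in the dark, 29 in low light and 33 in high light. Over all tested genes these shares were 13.7%, 12% and 34.3%. By edgeR, 6.53% of tested genes differed between the lines in the dark, 7% in low light and 12.2% in high light. The rule used these contrasts, so nothing is read from how many of the 35 genes passed them.

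**Figure D2:**
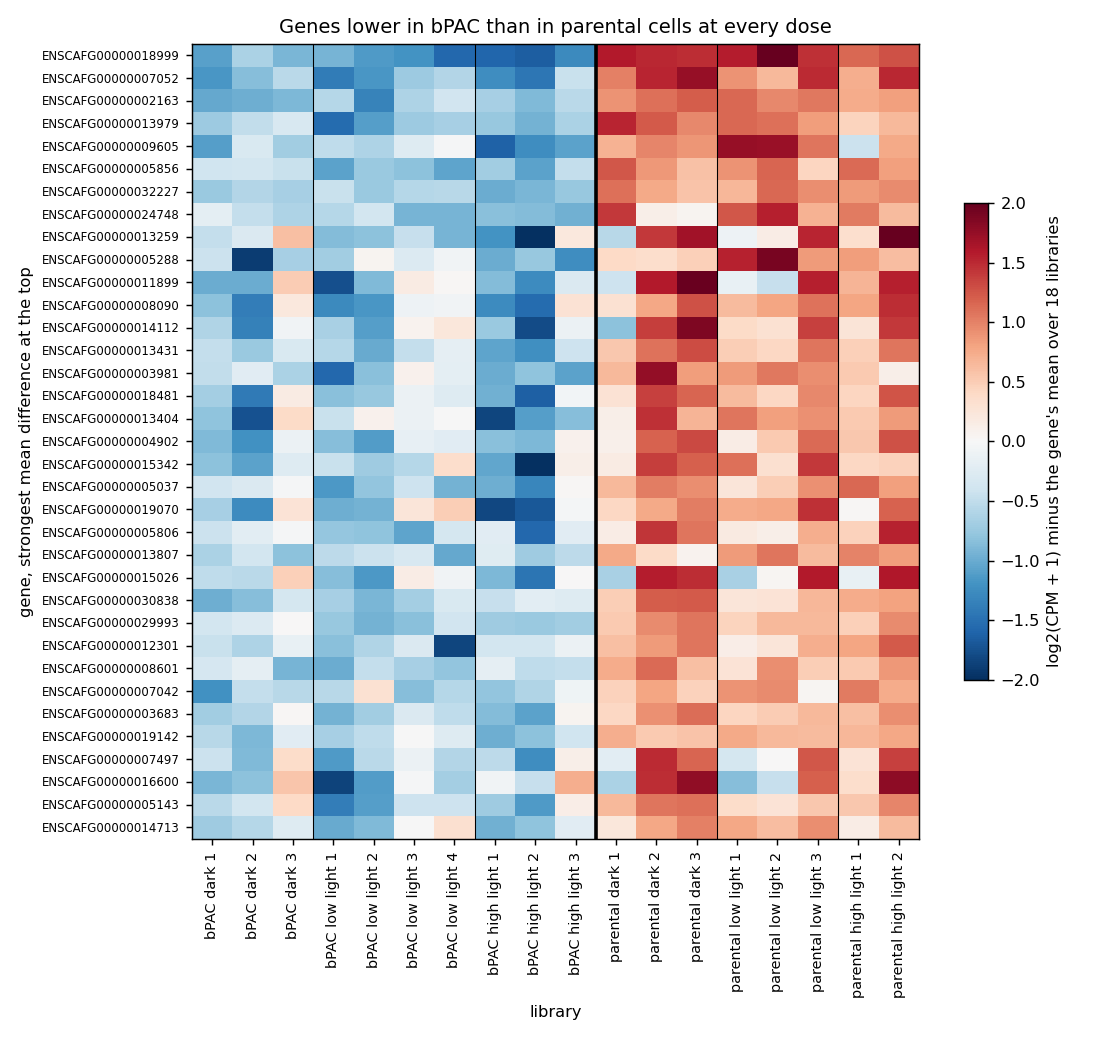
Level of each of the 35 genes (rows) in each of the 18 libraries (columns), as log2(CPM + 1) minus the gene's mean over the libraries. Blue is below and red above that mean, and the thick line parts the 10 bPAC libraries from the 8 parental ones. For 22 genes every bPAC library was below every parental library. The other 13 overlap in at least 1 pair of libraries.

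ENSCAFG00000018999 had the lowest mean ratio of the 35. It stood at 5.72, 8.20 and 6.59 CPM in bPAC dark, at 6.54, 5.52, 5.23 and 3.80 CPM in bPAC low light and at 3.77, 3.55 and 4.93 CPM in bPAC high light. In parental cells it stood at 42.1, 39.6 and 38.9 CPM in the dark, at 41.4, 55.7 and 38.3 CPM in low light and at 30.6 and 33.5 CPM in high light. The highest bPAC library, at 8.20 CPM, was far below the lowest parental library, at 30.6 CPM. Means were 6.84 ± 1.26 CPM in bPAC dark against 40.2 ± 1.69 CPM in parental dark (SD, n = 3 each), a log2 ratio of -2.39. The ratios were -2.88 in low light and -2.70 in high light.

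ENSCAFG00000007052 came next, with ratios of -2.29, -1.99 and -2.14 in the order of the doses. It stood at 31.6, 39.2 and 49.2 CPM in bPAC dark, at 26.6, 31.6, 43.0 and 47.4 CPM in bPAC low light and at 29.8, 25.7 and 52.7 CPM in bPAC high light. Parental levels were 146, 209 and 244 CPM in the dark, 135, 113 and 204 CPM in low light and 120 and 206 CPM in high light. The lines did not overlap at any dose, although the libraries of bPAC high light ranged from 25.7 to 52.7 CPM. Means in high light were 36.1 ± 14.5 CPM in bPAC (SD, n = 3) and 163 ± 61.3 CPM in parental cells (SD, n = 2).

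The 2 genes of highest level were ENSCAFG00000005143 and ENSCAFG00000024748. ENSCAFG00000005143 stood at 204, 230 and 392.1 CPM in bPAC dark, at 113, 138, 224 and 224 CPM in bPAC low light and at 182, 135 and 328 CPM in bPAC high light. Parental levels were 468, 629 and 637 CPM in the dark, 385, 359 and 434 CPM in low light and 430 and 587 CPM in high light. Within each dose the lines were apart, but the highest bPAC library, a dark one at 392.1 CPM, was above 2 of the parental low light libraries. Ratios were -1.07 in the dark, -1.17 in low light and -1.24 in high light.

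ENSCAFG00000024748 stood at 203, 166 and 151 CPM in bPAC dark, at 155, 179, 121 and 121 CPM in bPAC low light and at 129, 127 and 119 CPM in bPAC high light. Parental levels were 623, 251 and 240 CPM in the dark, 552, 683 and 377 CPM in low light and 478 and 359 CPM in high light. No bPAC library reached a parental one. The first parental dark library was at 623 CPM and the other two at 251 and 240 CPM, so the ratio in the dark, -1.10, rests on unlike replicates. Ratios were -1.89 in low light and -1.73 in high light.

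At the edge of the rule, ENSCAFG00000015026 was the member nearest to the limit, with ratios of -1.19 in the dark, -1.01 in low light and -1.63 in high light. Its parental libraries fell into separate ranges, at 10.9, 54.1 and 50.6 CPM in the dark, 10.9, 18.05 and 54.9 CPM in low light and 15.8 and 55.4 CPM in high light. Its bPAC libraries were at 12.1, 11.8 and 25.001 CPM in the dark, 9.35, 7.43, 19.8 and 16.8 CPM in low light and 8.95, 5.77 and 17.8 CPM in high light. The lines overlapped at every dose for this gene, and its replicates were split within each parental group. The nearest gene outside the rule, ENSCAFG00000012306, had ratios of -1.09 in the dark, -1.06 in low light and -0.999 in high light.

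**Figure D3:**
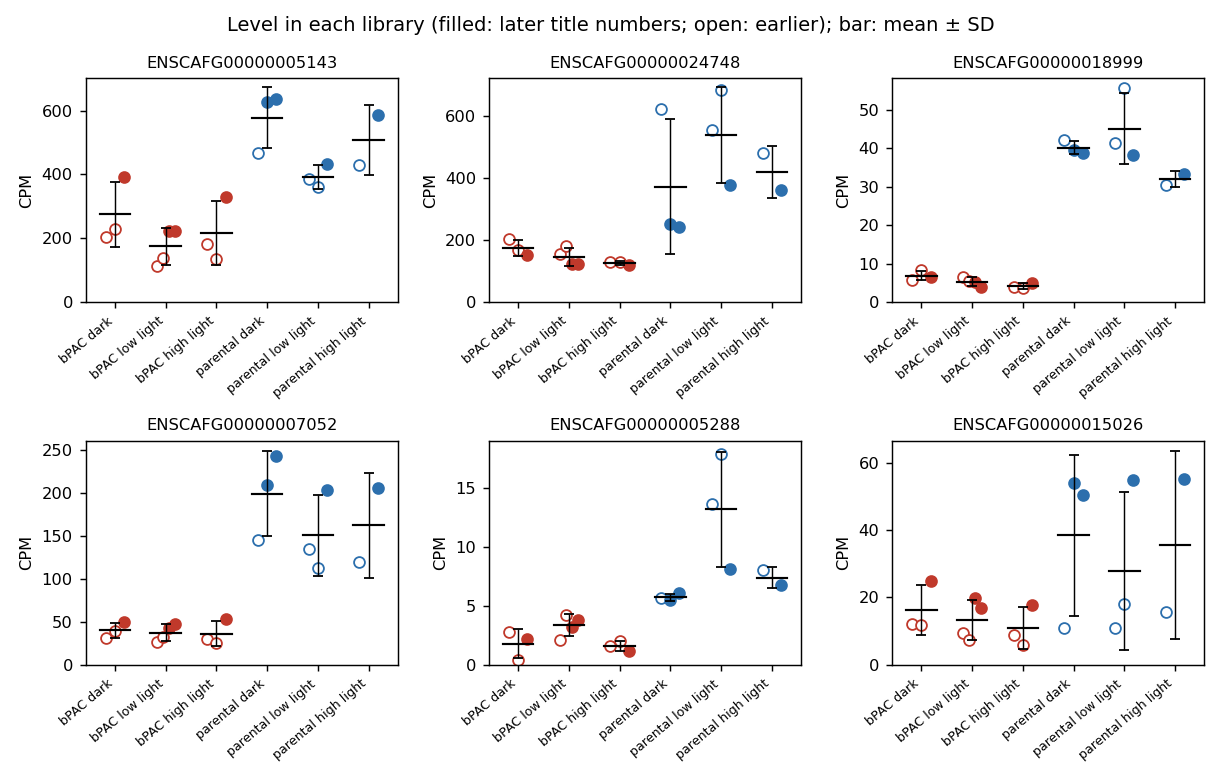
CPM of 6 of the 35 genes in every library, with bPAC groups in red on the left and parental groups in blue on the right. Points are libraries, horizontal bars are group means and whiskers are 1 SD (n = 2 to 4), and filled and open points are the later and earlier title numbers described in the text. ENSCAFG00000018999 lies at 3.55 to 8.20 CPM in bPAC and 30.6 to 55.7 CPM in parental libraries, while ENSCAFG00000015026 splits by title number within each group.

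The split seen in ENSCAFG00000015026 was shared by much of the set. The library titles carry a running number, and in blocks of 4 numbers that end at 52, 56, 60, 64, 68 and 72 each block holds 1 group. The last 2 places of the blocks hold 8 libraries, called later here, and the first 2 places hold 10, called earlier. What the numbers stand for is not given by the labels, so they are used here only as numbers. This grouping was made after the levels of the 35 genes had been seen. Earlier and later libraries numbered 2 and 1 in bPAC dark, but 1 and 2 in parental dark. In high light these were 2 and 1 in bPAC and 1 and 1 in parental cells. In low light these were 2 and 2 in bPAC and 2 and 1 in parental cells. For a gene higher in later libraries, this make-up lowers the line ratio in the dark and high light and raises it in low light. How far this shaped the choice of genes was not tested. After group means were removed, the median of the 35 genes was above 0 in each of the 8 later libraries and below 0 in each of the 10 earlier libraries, in both lines and at each dose.

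As medians over the 35 genes, the deviations were smaller than the differences between the lines. This did not hold for every gene. ENSCAFG00000015026, for example, differed by 1.501 between later and earlier libraries in the model given below, and its line ratio in low light was -1.01. Later libraries deviated by 0.33 in bPAC dark, by 0.26 and 0.39 in bPAC low light and by 0.38 in bPAC high light, as medians over the 35 genes on the log2 scale. Earlier libraries deviated by -0.17 and -0.15 in bPAC dark, by -0.29 and -0.23 in bPAC low light and by -0.11 and -0.21 in bPAC high light. In parental cells the later libraries deviated by 0.06 and 0.23 in the dark, 0.11 in low light and 0.17 in high light. Parental libraries of earlier number deviated by -0.34 in the dark, by -0.07 and -0.09 in low light and by -0.17 in high light.

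The share of reads aligned to more than 1 place moved the same way. In bPAC dark it was 39.9% in the later library and 38.5% to 38.7% in the earlier libraries. In bPAC low light it was 40.3% to 40.7% in later and 37.5% to 38.2% in earlier libraries, and in bPAC high light 44.4% in later and 41.7% to 42.3% in earlier libraries. In parental cells it was 40.4% in the later and 39.6% in the earlier libraries in the dark, 41.96% in the later and 39.7% to 39.8% in the earlier in low light, and 44.2% in the later and 38.9% in the earlier in high light. The part of these reads in the levels of the 35 genes was not tested.

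**Figure D4:**
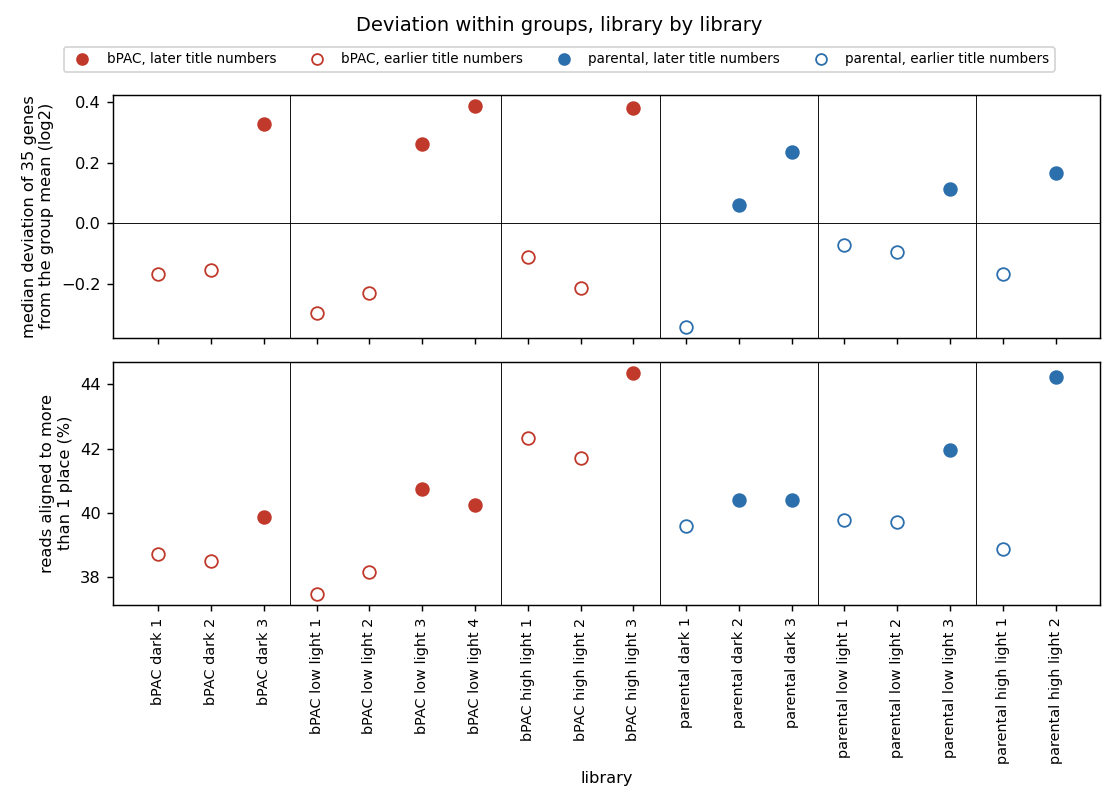
Top, the median over the 35 genes of the deviation from the group mean in each library, in log2 units of TMM-scaled CPM with 1 added. Bottom, the percentage of all reads that aligned to more than 1 place. Filled points are later and open points earlier title numbers, with bPAC in red and parental in blue. In each of the 6 groups every filled point is above every open point, in both panels.

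With later against earlier title number as a further term in the edgeR model, 27 of the 35 genes were higher and 8 lower in later than in earlier libraries. Their median log2 difference was 0.50, with a range from -0.61 to 1.501, and over the 8530 tested genes the median was -0.01. A difference of at least 2-fold upwards was fitted for 7 of the 35 genes, or 20% of them, and for 1.47% of all tested genes. ENSCAFG00000015026 had the largest at 1.501 (SE 0.16), and ENSCAFG00000024748 the lowest at -0.61 (SE 0.12). Over all tested genes 10.9% differed between later and earlier libraries by edgeR's quasi-likelihood test with Benjamini-Hochberg adjustment. The grouping was defined after the levels of the 35 genes were seen, so no test is given for them. The unequal groups also favour the choice of genes higher in later libraries in the dark and high light, though not in low light.

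Many of the genes deviated together from library to library. For each gene the residuals after group means were removed were correlated over the 18 libraries with the mean of the other 34. The libraries share the title-number split, so these correlations are a description. The correlation was above 0.9 for 6 genes, above 0.7 for 16 and above 0.5 for 21, and below 0 for 8. ENSCAFG00000007052 had 0.90, ENSCAFG00000005143 had 0.92 and ENSCAFG00000015026 had 0.87, while ENSCAFG00000018999 had -0.36 and ENSCAFG00000024748 had -0.79. Each pair named above, that of lowest ratio and that of highest level, thus has 1 gene with a high correlation and 1 with a negative one. Over the 595 pairs of genes, 33.8% correlated above 0.5, against 10.7% of pairs among the 7062 IDs. Among the 62 genes higher in bPAC cells at every dose, 18.9% of pairs did.

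The difference between the lines was then read within later and within earlier libraries alone, where bPAC and parental libraries of like title number are compared. In later libraries the median log2 ratio of the 35 genes was -1.15 in the dark, -1.33 in low light and -1.33 in high light. In earlier libraries it was -1.15, -1.34 and -1.55 in the same order. Each of these values rests on 1 or 2 libraries of each line. The rule chose the 35 genes on these same libraries, so their ratios within each set are a description and do not show independently that the difference holds there. For 12 of the 35 genes the ratio was at or below -1 in all 6 combinations of title-number set and dose, and for 33 it was below 0 in all 6. The exceptions were ENSCAFG00000013259 and ENSCAFG00000015026, at 0.18 and 0.12 in the dark in earlier libraries, where parental cells have 1 library. The rule applied to each set alone found 46 genes in later libraries, 19 of them among the 35, and 39 in earlier libraries, 18 of them among the 35. The lists have 12 genes in common.

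A library that the choice of genes did not use gives a level free of that choice, though the libraries it is set against were used. The ratios are thus only partly free of the choice, which favours values below 0 for the chosen genes and not for all IDs. The rule was applied 18 times, each time without 1 library, and the genes found were read in that library against the mean of the other line at the same dose. In the 10 bPAC libraries the median log2 ratio to parental cells lay between -1.94 and -0.82, and 97.8% to 100% of the genes chosen were below 0, against 51.7% to 70.9% of all IDs past 5 CPM. At the rule's own limit of -1 the share was 35.6% to 100%, against 3.08% to 23.6% of all such IDs. It was lowest in bPAC low light library 4 (16 genes of 45), bPAC dark library 3 (20 of 53) and bPAC low light library 3 (17 of 40), each of later title number. In the 8 parental libraries, with bPAC still as numerator, the median lay between -1.51 and -0.83, and 81.1% to 100% were below 0, against 46.9% to 67.8% of all IDs past 5 CPM. At or below -1 were 37.8% to 90.5%, against 1.26% to 16.6% of all such IDs. The lowest share below 0 was in the first parental dark library, which is of earlier title number. There 30 of 37 genes chosen without it were below 0 and 14 were at or below -1. The list counted between 21 genes, without parental low light library 3, and 53, without bPAC dark library 3. Of the 35 genes 8 were found all 18 times, ENSCAFG00000018999 and ENSCAFG00000007052 among them.

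The response of parental cells to light is a measure the rule does not bound directly, although it uses the same libraries. Indirectly the rule favours small responses, since it limits the line ratio at each dose and the light response of bPAC cells. The tested genes also include IDs that did not reach 5 CPM. Smaller changes among the 35 than among all tested genes, here and below, therefore do not show a weaker response to light. All 35 genes passed the filter on low counts and were tested among 8530. Among parental cells, 1 of the 35 genes differed between low light and dark, and 11.4% of all tested genes did (edgeR quasi-likelihood test, Benjamini-Hochberg adjusted over the 8530 genes). An unadjusted p under 0.05 was found for 3 of the 35, or 8.57%, and for 28.4% of all tested genes. The median fold change of the 35 on the log2 scale was -0.18, against -0.01 over all tested genes, and 28 of the 35 had a log2 fold change under 0.5 in size, as had 5010 of the 8530 tested genes. Parental dark holds 2 later libraries and 1 earlier one, and parental low light 1 later and 2 earlier. With title number in the model the median of the 35 was 0.07, so its sign depends on that term. The share of all genes called rests on few libraries: the 976 calls became 242 without the second parental dark library, 634 without the first parental low light library and 268 without the second.

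The 1 gene called was ENSCAFG00000005288, which rose in parental low light, as 6.76% of tested genes did. It stood at 13.6, 17.9 and 8.07 CPM in parental low light and at 5.62, 5.44 and 6.05 CPM in parental dark. All low light libraries were above all dark ones, as they were for 15.7% of tested genes. Means were 13.2 ± 4.91 CPM in low light and 5.70 ± 0.312 CPM in the dark (SD, n = 3 each). The log2 fold change was 1.27 (SE 0.38), or 2.40-fold, with an edgeR adjusted p of 0.0351. The 2 parental high light libraries were at 8.02 and 6.74 CPM, and there the log2 fold change against dark was 0.43 with an edgeR adjusted p of 0.677. The call in low light was lost without parental dark library 1, 2 or 3 (edgeR adjusted p = 0.0786, 0.143 and 0.0601) and without parental low light library 1 or 2 (edgeR adjusted p = 0.0841 and 0.198). The log2 fold change was then 1.29, 1.19 and 1.27 without the dark libraries, and 1.23 and 0.96 without the low light ones. In bPAC cells the gene stood at 2.75, 0.357 and 2.20 CPM in the dark, 2.10, 4.24, 3.19 and 3.80 CPM in low light and 1.54, 2.00 and 1.14 CPM in high light. Whether its light response differs between the lines was not tested, since the rule bounds the bPAC side.

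In high light 0 of the 35 genes differed from dark in parental cells by edgeR, DESeq2 or limma-voom, and 1 had an unadjusted edgeR p under 0.05, or 2.86% of the 35 against 15.1% of all tested genes. Over all tested genes 0.176% were called, 15 in number. With any single library removed except bPAC high light library 3, that count changed by more than 1.5 times, within a range of 2 to 37. The median log2 fold change of the 35 was -0.03, against -0.02 over all tested genes. With title number in the model the median of the 35 was 0.11. The size of the change, regardless of sign, had a median of 0.17 for the 35 genes and 0.35 for all tested genes. Between high and low light 0 of the 35 were called by edgeR, DESeq2 or limma-voom, and 0.0117% of tested genes were called, which is 1 gene. An unadjusted edgeR p under 0.05 was found there for 2 of the 35, or 5.71%, and for 12.7% of all tested genes. On simulated counts the edgeR test recovered 33% of 2-fold and 67% of 4-fold changes in parental high light against dark. Between high and low light it recovered 21% and 66%, and in low light against dark 35% and 72%. A count of 0 therefore does not show that none of the 35 genes responded. With title number in the model the parental calls among the 35 were again 1 in low light, ENSCAFG00000005288 with an edgeR adjusted p of 0.0417, and 0 in high light, where 108 of all tested genes were called.

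**Figure D5:**
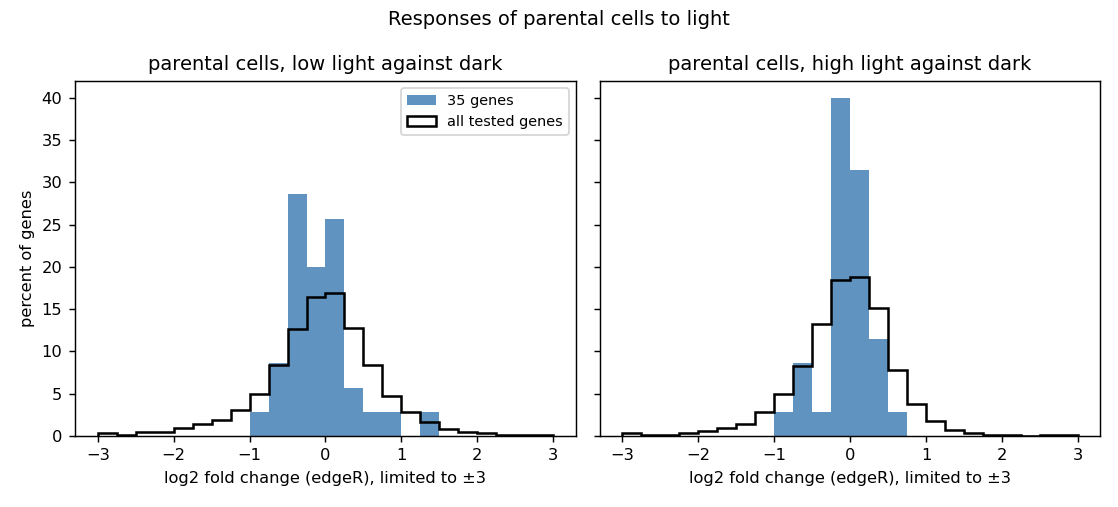
Log2 fold changes of parental cells given low light (left) and high light (right) against dark, as the percentage of the 35 genes (blue) and of the 8530 tested genes (black line) in bins of 0.25. Values beyond 3 in size are drawn in the outermost bin. The 35 genes lie between -0.88 and 1.27 in low light and between -0.88 and 0.55 in high light.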

How the data were processed

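For each of 18 libraries the authors deposited raw counts, whole numbers of reads per gene. Per the labels' protocols, Lexogen kits served for RNA extraction (SPLIT) and for libraries (QuantSeq 3′ FWD). Reads were placed on CanFam3.1 (submitters' processing notes). The sources used here do not name the aligner, the counting program or the annotation. The 5 rows without a gene were left out of library sizes; reads outside genes made up 25.1% to 29.6% of a table, and reads aligned to more than 1 place 37.5% to 44.4%. All 19 pairs of libraries within a group differed by more than counting error (chi-square divided by degrees of freedom from 8.43 to 63.9).

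CPM were counts over summed gene counts. Tests used edgeR 4.0.16 in R 4.3.3 (TMM, filterByExpr with a minimum count of 10, glmQLFit with robust estimation, glmQLFTest) in 1 model of 6 groups, with Benjamini-Hochberg adjustment at 0.05 over 8530 genes, and the script was tested on simulated counts. Each SE is the size of a log2 fold change over √F. Alternatives were DESeq2 1.42.0 (test and size factors), limma-voom (limma 3.58.1), other filters and rule settings, and leaving out each library. The grouping by title number, and leaving out bPAC low light libraries 1 and 4 or 2 and 3, were added after the data were seen.

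Members and lists were chosen with earlier results of these data known. Named were the 2 genes of highest level, the 2 of lowest mean ratio over the doses, those called in a parental light contrast (at most 2 a direction), and the nearest to the limit on either side. A further part, genes with at most 3 bPAC reads, found 0. ENSCAFG00000013259 was named after its values were seen, as was ENSCAFG00000016600. Marker and pathway lists by symbol could not be used.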

Additional observations from a re-analysis of the deposited data

How the results depend on the processing

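The number of genes in the set depended on where its limits lay. It was 17 with 5 CPM added in place of 1, 61 with no bound on light responses within bPAC cells and 21 with a bound of 0.5. Leaving out 1 library gave between 21 and 53. It was 36 without bPAC low light libraries 1 and 4, with 27 of the 35 among them, and 29 without libraries 2 and 3, again with 27 of the 35. The median ratios lay between -1.64 and -1.12 over all settings, a direction that the rule itself fixes.

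For parental low light against dark, 2 of the 35 genes were called with no filter on low counts, the second being ENSCAFG00000016600 (log2 fold change -0.86, edgeR adjusted p = 0.0145). Leaving out 1 library gave 0 or 1 of the 35, and between 242 and 1248 of all genes. Without parental dark replicate 1 the gene called was ENSCAFG00000024748 (edgeR adjusted p = 0.00841) in place of ENSCAFG00000005288, whose adjusted p lay between 0.0140 and 0.198 over all alternatives. Against dark, parental high light gave 7 genes with DESeq2's size factors, 151 with the DESeq2 test, 4 with limma-voom, 227 with no filter, 6 with a filter at 5 CPM, 2 with only the parental libraries and 108 with title number in the model, and between 2 and 37 on leaving out 1 library. Between high and low light, counts were 51 with the DESeq2 test, 52 with no filter, 2 with title number in the model, and 0 to 3 on leaving out 1 library. The cause was not tested. In each of these settings 0 of the 35 were called in high light.

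Between the lines, 557 genes were called in the dark, 597 in low light and 1041 in high light. With title number in the model the counts were 748 in the dark, 1054 in low light and 1429 in high light. Leaving out 1 library gave 224 to 720 in the dark, 298 to 641 in low light and 290 to 1212 in high light. The dark count fell most without bPAC dark library 2 (238) and parental dark libraries 2 (238) and 3 (224). The low light count was 353, 298 and 339 without parental low light libraries 1, 2 and 3. The high light count was 571 and 544 without bPAC high light libraries 1 and 2, and 658 and 290 without parental high light libraries 1 and 2. The labels give no replicate numbers, so single libraries were not paired. Later against earlier title number, which groups libraries across all 6 groups, was fitted as a block after the data were seen, with the counts above. Depth limits the genes of lowest level most, such as the 3 with no group mean above 10 CPM.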

Other observations

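The variation that the 35 genes shared between libraries of a group was not the main variation within groups. The first principal component of the residuals of 7062 IDs held 34.7% of their variance, and the mean residual of the 35 genes correlated with it at 0.00818 over the 18 libraries. Outside the set, 428 of 7027 IDs correlated above 0.7 with that mean and 396 below -0.7. Of the 428 genes, 81.1% had a mean log2 ratio of bPAC to parental cells below 0, against 65.2% of all 7027, with medians of -0.41 and -0.15. The 62 genes higher in bPAC cells at every dose leaned the other way: 17 were higher and 45 lower in later than in earlier libraries, with a median log2 difference of -0.26. Genes were chosen from the same libraries, so these values describe them and carry no test. Later libraries also make up a larger share of parental than of bPAC libraries in the dark and in high light. In low light their share is smaller in parental cells. A tie between title number and line ratio cannot be told apart from this make-up, whose part was not tested.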
